A study of Mus musculus with 2 samples.

Results

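Of 2225 Prx1-lineage cells in the periosteal library from uninjured mice, 190 had a high summed level of Comp, Thbs4 and Tnmd, genes that mark tendon and ligament cells, and 34 of them carried all 3 genes. They made up 8.54% of the lineage cells (95% interval 7.41 to 9.78, exact Clopper-Pearson) and 4.29% of the 4431 cells of the library. Levels per cell are given as UMIs (unique molecular identifiers, each standing for 1 captured transcript) per 10000 UMIs of that cell. Barcodes with at least 500 genes, at least 1000 UMIs and at most 10% mitochondrial UMIs were taken as cells. A lineage cell had at least 3 EGFP UMIs, EGFP at 5 or more per 10000, and the macrophage genes C1qa, C1qb and C1qc together below 3 per 10000. Members had at least 3 UMIs of Comp, Thbs4 and Tnmd together, at 5 or more per 10000. They were set against the 1500 lineage cells of the same library in which the sum of the 3 genes stayed below 1 per 10000, called comparison cells below. The remaining 535 lineage cells lay between the thresholds.

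The mice carried Prx1Cre and the mTmG reporter, in which Cre replaces membrane tdTomato by membrane EGFP in a cell and all its descendants. The Prx1 enhancer drives Cre in the early limb mesenchyme, so EGFP marks a broad limb lineage and is not particular to tendon. The study has 1 library from uninjured periosteum (day 0) and 1 from periosteum at day 3 after tibial fracture, and both groups carry the same alleles. Per the labels' protocols the cells grew out of explants in medium with serum and bFGF until near confluence, while the series' design text speaks of no expansion. Age and number of mice are not given in the sources used here. All values below are from the uninjured library unless the day-3 library is named. There were no replicates and cells of 1 library are not replicates, so no test was made, and every interval covers counting error only.

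Tendon cells, or tenocytes, lie in rows between collagen fibres and make the fibrillar collagens, small leucine-rich proteoglycans and thrombospondin-family glycoproteins of that matrix. Scleraxis (Scx) and Mohawk (Mkx) are transcription factors of the tendon lineage, and tenomodulin (Tnmd) is a membrane glycoprotein of mature tendon cells. Tendons and ligaments insert into bone through and beside the periosteum, whose fibrous outer layer is also rich in collagen-making fibroblasts.

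Members were chosen by their Comp, Thbs4 and Tnmd levels, so the levels of these genes are a description. Every other gene was measured in the same cells, and its values are given as a description too. COMP is a pentameric thrombospondin-family protein of tendon and cartilage matrix, and the gene (chromosome 8, 70373558 to 70382066, mm10) was at 433 CPM in members, 129 CPM in the cells between the thresholds and 10.9 CPM in comparison cells. CPM scales the gene's UMIs by all UMIs, both summed over the cells of a group, so that 1 UMI per 10000 corresponds to 100 CPM. Thbs4, thrombospondin 4 (chromosome 13, 92751590 to 92794818), was at 342 CPM in members, 57.3 CPM in the cells between and 3.84 CPM in comparison cells. Tnmd (chromosome X, 133850980 to 133865577) was at 99.1, 40.04 and 4.40 CPM in the same order of groups. Members differed in which of the 3 genes they carried. Comp was seen in 94.2% of members, Thbs4 in 73.2% and Tnmd in 34.2%, against 25.5%, 8.67% and 10.3% of comparison cells. The level per cell ran from 0 to 19.1 per 10000 for Comp, with a median of 4.14. For Thbs4 it ran from 0 to 17.0 with a median of 2.65, and for Tnmd from 0 to 15.3 with a median of 0. Comp and Thbs4 were found together without Tnmd in 96 members, all 3 genes in 34, Comp with Tnmd in 25, Comp alone in 24, Thbs4 alone in 5, Thbs4 with Tnmd in 4 and Tnmd alone in 2. The summed level of the 3 genes ran from 5.02 to 29.2 per 10000 with a median of 7.75. The 5 members nearest to the threshold lay at 5.02 to 5.06 and the 5 lineage cells just under it at 4.85 to 4.99. There were 35 members between 5 and 6 per 10000 and 59 lineage cells between 4 and 5, so the threshold cut through a continuous range of levels.

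**Figure D1:**
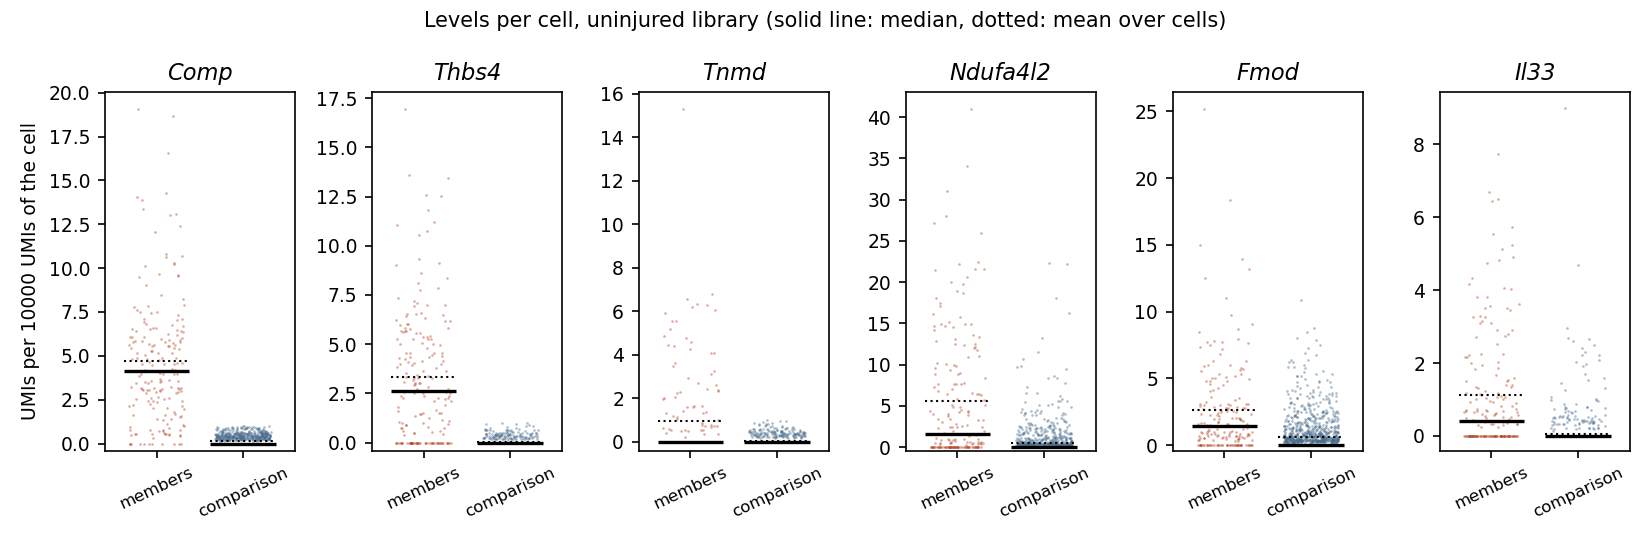
UMIs per 10000 UMIs of the cell (vertical axes, linear, each with its own scale) for Comp, Thbs4, Tnmd, Ndufa4l2, Fmod and Il33 in the 190 members (left of each panel) and the 1500 comparison cells (right). Each point is 1 cell, the solid line the median and the dotted line the mean; a median line at 0 covers the cells at 0. Comp reached a median of 4.14 and Thbs4 of 2.65 in members, while the Tnmd median was 0 in both groups.

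Promoter windows of Thbs4, Tnmd and Fmod, the tendon genes of the rule and of the label that were found in the RefSeq table of GRCm38.p6 promoters, are shown because Scx binds E-boxes (CANNTG) and members differed in which of these genes they carried. Each window runs from 250 bases before to 50 bases after the start of the gene, 5′ to 3′ on the strand of the gene, with CANNTG in capitals. The motif has the same letters on both strands, and matches do not overlap. It was found in 72.3% of 32851 windows of this length, so a match is common. The windows are chr13:92794769-92795068 on the minus strand for Thbs4, chrX:133850758-133851057 on the plus strand for Tnmd and chr1:134037004-134037303 on the plus strand for Fmod. Thbs4 held 2 matches, Fmod 1 and Tnmd 0.
Thbs4: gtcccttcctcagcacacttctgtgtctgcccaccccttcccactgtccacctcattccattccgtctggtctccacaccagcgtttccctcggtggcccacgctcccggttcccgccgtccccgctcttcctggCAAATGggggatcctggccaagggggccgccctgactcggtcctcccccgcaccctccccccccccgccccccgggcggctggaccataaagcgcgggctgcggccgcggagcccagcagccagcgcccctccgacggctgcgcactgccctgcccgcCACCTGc
Tnmd: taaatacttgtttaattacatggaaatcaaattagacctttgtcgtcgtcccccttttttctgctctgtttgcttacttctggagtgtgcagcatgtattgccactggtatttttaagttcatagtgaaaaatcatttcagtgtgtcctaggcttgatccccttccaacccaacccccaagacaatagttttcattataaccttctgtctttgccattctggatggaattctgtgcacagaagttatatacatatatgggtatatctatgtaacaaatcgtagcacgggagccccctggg
Fmod: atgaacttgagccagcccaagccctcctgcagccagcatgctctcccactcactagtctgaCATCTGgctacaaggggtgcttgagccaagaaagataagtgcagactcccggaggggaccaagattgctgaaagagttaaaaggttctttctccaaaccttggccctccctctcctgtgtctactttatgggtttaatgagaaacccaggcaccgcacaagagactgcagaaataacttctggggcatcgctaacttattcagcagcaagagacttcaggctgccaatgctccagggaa

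The tendon label held unevenly against genes that the rule did not use. Ndufa4l2, a mitochondrial protein induced by low oxygen that also marks pericytes, was at 547 CPM in members and 38.4 CPM in comparison cells, a ratio of 14.2 (13.3 to 15.2). Per cell it ran from 0 to 41.0 per 10000 with a median of 1.61 in members, and from 0 to 22.3 with a median of 0 in comparison cells, so the groups overlapped. Fmod, fibromodulin, a proteoglycan that steers collagen fibril growth, was at 256 and 57.1 CPM (ratio 4.48, 4.16 to 4.83). Mkx was at 12.0 and 1.70 CPM (7.06, 4.77 to 10.3), from 46 UMIs in members and 73 in comparison cells. Scx was at 46.7 and 29.6 CPM, a ratio of only 1.58 (1.34 to 1.84). Keratocan (Kera) and chondroadherin (Chad), proteoglycans of mature tendon and cartilage, gave 5 and 2 UMIs in all 190 members and none in comparison cells. With the cells of all groups thinned to 3000 UMIs, Ndufa4l2 was seen in 47.4% of members, 7.95% of comparison cells and 2.33% of C1q-positive macrophages of the same library, which should lack these genes and gauge free RNA. Fmod was seen in 38.4%, 12.0% and 1.89%, Scx in 10.0%, 6.68% and 0.291%, and Mkx in 4.74%, 0.535% and 0.146%. Kera and Chad were seen in 0 of 190 thinned members, which allows up to 1.58% of cells with a UMI at that depth and sets no limit on cells that express the genes. The median depth was 19456.5 UMIs in members, 27034.5 in comparison cells and 10916 in the 727 macrophages, of which 40 were too shallow to thin, as were 4 comparison cells. Scx differed by less than 2-fold and Kera and Chad gave few UMIs at full depth, so the cells are called by their rule, as lineage cells high in the sum of Comp, Thbs4 and Tnmd, or members, and are not given the name tenocyte.

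The uninjured library held 4573 barcodes with 94034112 UMIs and the day-3 library 16332 barcodes with 227191961 UMIs, and 3 barcode sequences were shared by both. Members had a median of 3965.5 genes and 2.56% mitochondrial UMIs, against 4707 genes and 2.55% in comparison cells. EGFP had a median of 22.8 per 10000 in members, and the tdTomato median was 0 in members and comparison cells. Of the 2206 cells outside the lineage, 38 passed the thresholds on Comp, Thbs4 and Tnmd. Of these, 35 failed the C1q limit and 1 had no EGFP UMI. Markers of other cell types were summed over each list. Those of macrophages came to 497 CPM in members, 452 CPM in comparison cells and 23111 CPM in the C1q-positive macrophages, and 0 of the 5 macrophage genes that reached 10 CPM were 2-fold apart. Of 9 endothelial genes 6 were at 0 in members, including Pecam1, Cdh5 and Kdr, and of 9 skeletal muscle genes 8 were at 0. The pericyte genes Kcnj8, Abcc9, Higd1b and Mcam were at 0 in members as well, and Rgs5 gave 5 UMIs, while Ndufa4l2 and Cox4i2 (13.3 and 3.84 CPM) of that list were higher. Of the Cox4i2 UMIs in members 92.2% lay in the highest 10% of cells, and its ratio of 3.46 was 1.02 without the cells of cluster 10, described below. The Schwann cell gene Sox10 and the adipocyte gene Adipoq were at 0. Cells with the osteoclast genes Acp5, Mmp9, Tyrobp and Fcer1g together at 5 or more per 10000 were 7 of 190 members (3.68%, 1.49 to 7.44) and 74 of 1500 comparison cells (4.93%, 3.89 to 6.15).

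Beyond the rule genes, members had higher levels of many genes of the tendon matrix and small proteoglycan lists, and lower levels of many contractile and mitotic genes. A minimum of 50 CPM in the higher group left 2745 genes, of which 105 (3.83%) were higher by 2-fold in members and 65 (2.37%) lower by as much, 170 in all (6.19%). Lowering the minimum to 10 CPM left 7544 genes, with 289 (3.83%) higher by 2-fold, 245 (3.25%) lower and 534 (7.08%) in all, and a median log2 ratio of −0.02. The gene lists below were counted at 10 CPM, for which the shares over all genes were 3.83% higher and 3.25% lower. The cells between the thresholds took a level in between for 102 of the 105 higher genes and for all 65 lower genes. These genes were called from members against comparison cells, and the same sum placed the cells between them. The counts are therefore a description, and no share over all genes stands beside them. Depth and division moved with the rule. At 3000 UMIs per cell, 17 of 190 members (8.95%, 5.30 to 13.9) and 469 of 1496 comparison cells (31.4%, 29.0 to 33.8) had at least 3 UMIs over 15 mitotic genes; unthinned, these shares were 33.7% and 71.3%. The part of either in the differences was not tested beyond the counts that follow. With comparison cells weighted so that their depths matched those of members, called matched depth below, 41 genes were at least 2-fold higher and 15 lower at the minimum of 50 CPM. With cells at 3 or more mitotic UMIs left out of both groups (126 members and 430 comparison cells left), 66 were higher and 20 lower.

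**Figure D2:**
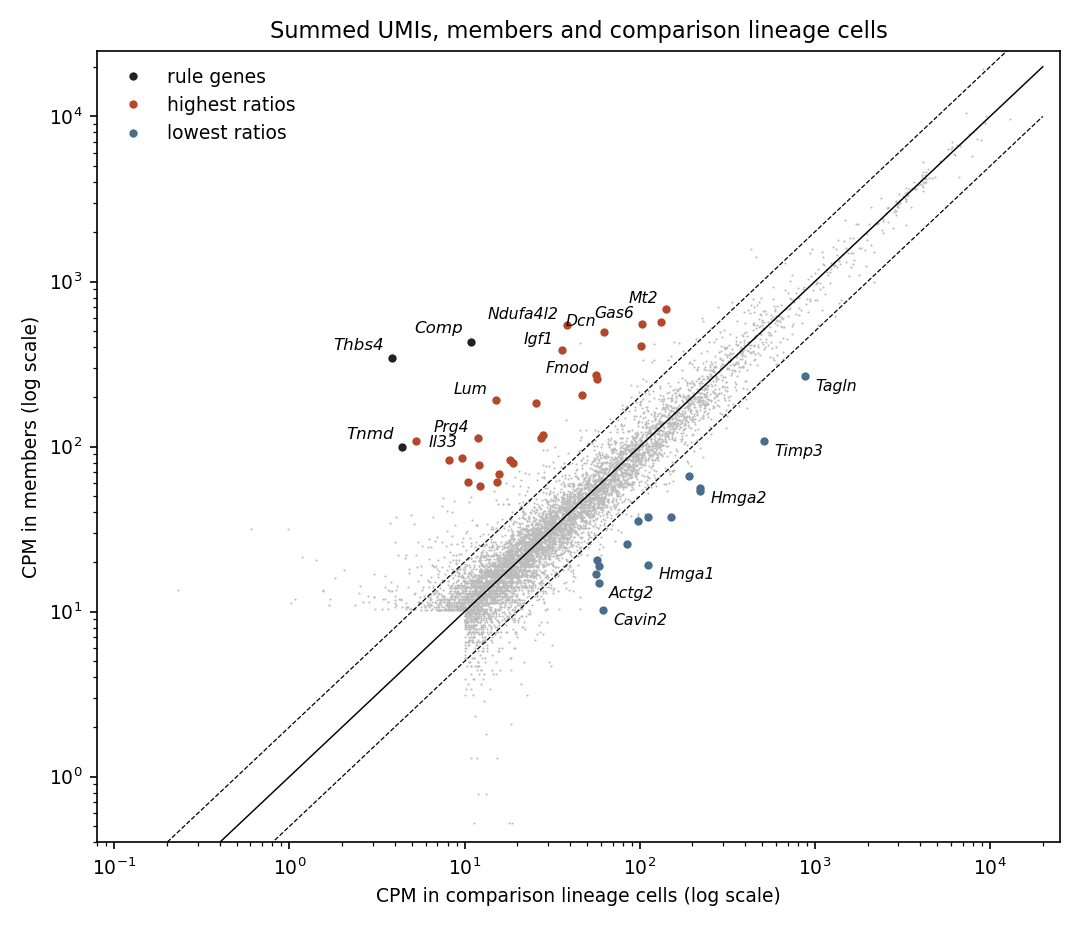
CPM of summed UMIs in the 190 members (vertical axis, log scale) against the 1500 comparison cells (horizontal axis, log scale), 1 point for each gene at 10 CPM or more in either group. The solid line is equality and the dashed lines are 2-fold; black points are the rule genes, red and blue points the genes with the highest and lowest ratios named by rule. Il33, at 108 and 5.28 CPM, lay farthest above the line among the red points, and Cavin2, at 10.2 and 61.9 CPM, farthest below it among the blue points.

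Small leucine-rich proteoglycans, which coat collagen fibrils and set their diameter and spacing, were among the genes with the highest ratios in members. Of 15 listed, 8 reached 10 CPM in either group, of which 5 were at least 2-fold higher in members and 1 lower, with a median log2 ratio of 1.92. Lumican (Lum) was at 191 CPM in members and 15.1 CPM in comparison cells (ratio 12.6, 11.4 to 14.1). Decorin (Dcn) was at 491 and 62.9 CPM (7.82, 7.37 to 8.29), with a median of 3.32 per 10000 per member and 0 per comparison cell and highest cells at 44.9 and 28.4. Prelp, a proteoglycan that anchors collagen to basement membrane, was at 57.9 and 12.3 CPM (4.71, 4.01 to 5.52), and asporin (Aspn) at 94.9 and 29.7 CPM. Biglycan (Bgn) was at 1610 CPM in members and 1274 CPM in comparison cells, a ratio of 1.26. Podnl1 was the lower one, at 3.39 and 10.2 CPM, and its ratio of 0.334 reached 0.591 among the alternatives, less than 2-fold apart. At matched depth Lum and Dcn kept ratios of 7.18 and 4.30.

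The other genes of the tendon matrix list followed the same direction. Of 22 listed, 10 reached 10 CPM and 9 of these were at least 2-fold higher in members, while 12 stayed below 10 CPM in both groups. The median log2 ratio was 1.82, and Fmod and Prelp stand in this list and in that of the proteoglycans. The higher genes of this list include Ndufa4l2, Aqp1 and Pdgfra, which do not code for matrix proteins. Ndufa4l2 and Fmod came with the label of these cells, so their place among the higher genes adds nothing to it. Abi3bp, a matrix protein that binds collagen, was at 82.4 CPM in members and 8.10 CPM in comparison cells (10.2, 8.71 to 11.9). The water channel Aqp1 was at 430 and 156 CPM (2.75, 2.61 to 2.91) and the PDGF receptor Pdgfra at 125 and 45.4 CPM (ratio 2.76). Clec11a, a secreted factor that promotes bone formation, was at 114 and 46.1 CPM, and cathepsin K (Ctsk), a collagen-degrading protease, at 110 and 45.9 CPM. Without the cells rich in osteoclast genes the Ctsk ratio of 2.39 was 1.86, and without cluster 10 it was 1.76. The 2-fold difference was also lost for Aqp1 without cluster 10 (1.84), for Pdgfra at matched depth (1.85) and for Clec11a at matched depth (1.88) and without cycling cells (1.496). Pcolce2, an enhancer of collagen propeptide cleavage, did not reach 2-fold, at 61.0 and 36.3 CPM. Angptl7, a secreted angiopoietin-like protein, had a ratio of 58.3 (29.3 to 129) from 52 UMIs in members and 10 in comparison cells, and all of its UMIs in members lay in the highest 10% of members, up to 13.6 per 10000 in 1 cell. Its ratio ran from 6.22, with all other lineage cells as the comparison, to 131, with members at 10 or more per 10000, and it was at 0 CPM in members of cluster 4. Prg4, lubricin, which keeps gliding tendon and joint surfaces slippery, was outside this list and was at 113 and 11.9 CPM (9.47, 8.32 to 10.8).

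Tendon transcription factors and regulators had a lower median ratio than the tendon matrix list. Of 14 listed, 10 reached 10 CPM, of which Mkx and Eya2 were at least 2-fold higher in members and Etv4 lower, with a median log2 ratio of 0.59. Eya2, a transcriptional co-activator, was at 12.8 CPM in members and 5.17 CPM in comparison cells (2.47, 1.78 to 3.38). Sox9, which marks the progenitors of tendon insertions and cartilage, was at 101 and 56.9 CPM (ratio 1.78). Egr1, an early response factor that promotes collagen transcription in tendon, was at 26.1 and 23.0 CPM with an interval that includes 1 (0.915 to 1.40). Etv4, an FGF target, was at 9.39 and 22.5 CPM. Without cycling cells the ratio of Eya2 was 1.42 and that of Etv4 was 0.580, and at matched depth that of Etv4 was 0.617. Scx, listed here too, had a ratio of 2.03 at matched depth, 0.857 without cycling cells and 1.08 without cluster 10, described below.

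Collagens were unevenly higher. Of 11 fibrillar collagen genes 9 reached 10 CPM, of which Col3a1, Col27a1 and Col2a1 were at least 2-fold higher in members and none lower. Col3a1, the collagen of pliable fibrils, was at 1403 CPM in members and 458 CPM in comparison cells (3.06, 2.97 to 3.16), with medians of 12.3 and 3.18 per 10000 per cell. Its ratio was 1.96 at matched depth and 1.90 without cycling cells, and that of Col27a1, a cartilage-associated fibrillar collagen, was 2.34, 1.29 at matched depth and 1.49 without cycling cells. All Col2a1 UMIs in members lay in the highest 10% of cells, 7.37% of members had one, and members of clusters 10 and 6 had none. The Col2a1 ratio of 2.26 was under 2 in 7 of the alternatives, down to 1.77. Col1a1 and Col1a2, the chains of the main tendon and bone collagen, were at 2358 and 1495 CPM (1.58) and at 2821 and 2078 CPM (1.36). Of 18 other collagen genes 8 reached 10 CPM, and Col14a1, Col6a1 and Col6a2 were at least 2-fold higher. Col14a1, a fibril-associated collagen of tendon, was at 16.4 and 3.54 CPM (4.64, 3.40 to 6.27), and Col12a1, of the same class, at 247 and 124 CPM (1.99). At matched depth the ratio was 1.98 for Col14a1 and 1.67 for Col6a2. Among 24 collagen-processing genes at 10 CPM or more the lysyl hydroxylases Plod2 (76.4 and 30.2 CPM) and Plod1 (65.5 and 28.4 CPM) were higher in members and the crosslinking oxidase Loxl2 lower (16.4 and 41.9 CPM). The Loxl2 ratio of 0.392 was 0.765 with cells thinned to 3000 UMIs, the Plod2 ratio was 1.86 without cluster 10, and the Plod1 ratio was 1.98 without cycling cells. The other 21 collagen-processing genes stayed within 2-fold, including the crosslinking enzyme Lox at 719 and 464 CPM and the collagen chaperone Serpinh1 at 900 and 860 CPM.

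Of 13 elastic fibre genes at 10 CPM or more, 6 were at least 2-fold higher in members and none lower, with a median log2 ratio of 0.69. Fibrillin 2 (Fbn2) was at 33.4 CPM in members and 11.8 CPM in comparison cells (2.82, 2.30 to 3.43) and fibulin 1 (Fbln1) at 68.9 and 26.2 CPM (2.63, 2.29 to 3.01). Mfap2, Ltbp2, Ltbp3 and Emilin1 had ratios from 2.01 to 2.10, close to the 2-fold line. At matched depth the ratio was 1.89 for Fbn2 and 1.76 for Fbln1. Other matrix glycoproteins split. Mgp, an inhibitor of calcification, was at 1581 and 432 CPM (3.66, 3.56 to 3.77), and Tgfbi, an integrin-binding matrix protein, at 117 and 28.0 CPM (4.18, 3.74 to 4.66). The CCN family members Ctgf and Wisp1 were lower in members, at 4.69 and 31.0 CPM and at 13.8 and 37.9 CPM, while Nov, of the same family, was at 12.5 and 4.00 CPM. Of the thrombospondins that the rule did not use, Thbs1 was lower in members at 194 and 404 CPM (0.480, 0.445 to 0.516), Thbs2 was at 111 and 100 CPM, and Thbs3 at 14.6 and 9.06 CPM. At matched depth the Thbs1 ratio was 0.737. Cartilage genes were few: of 17 measured only 4 reached 10 CPM, with Col2a1 at 14.1 and 6.24 CPM and Matn4 at 12.0 and 1.07 CPM, while Acan, the main cartilage proteoglycan, gave 2 UMIs in members.

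**Figure D3:**
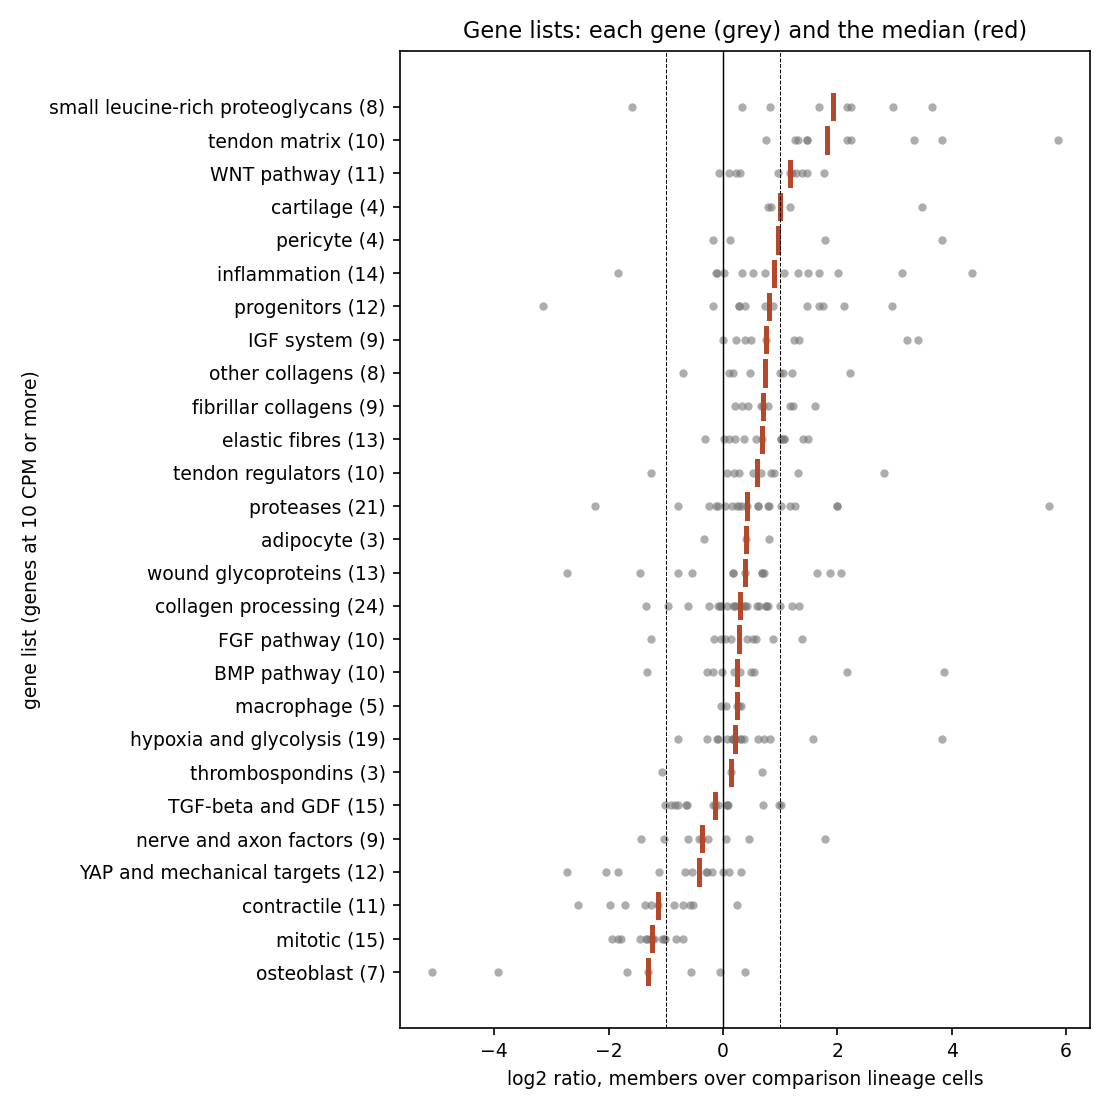
Log2 ratio of CPM, members over comparison cells (horizontal axis), for the genes of each list at 10 CPM or more in either group (grey points; number of genes in brackets) and the median of the list (red bar). Dashed lines mark 2-fold; the small leucine-rich proteoglycans had the highest median, 1.92, and the osteoblast genes the lowest, −1.32.

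Counts for growth factor pathways stand beside shares over all genes at 10 CPM or more of 3.83% higher and 3.25% lower by 2-fold. Igf1, a growth factor that stimulates collagen synthesis in tendon, was at 382 CPM in members and 36.1 CPM in comparison cells (10.6, 9.85 to 11.4), and at 449 CPM in the macrophages. Per cell it ran from 0 to 36.4 per 10000 with a median of 0.814 in members and from 0 to 29.6 with a median of 0 in comparison cells. Of 9 IGF system genes at 10 CPM or more, Igf1, Igfbp3, Igfbp4 and Igfbp5 were at least 2-fold higher and none lower. Igfbp3, a carrier of IGFs, was at 37.6 and 4.05 CPM (9.27, 7.38 to 11.6), while the receptor Igf1r was at 41.7 and 41.9 CPM. Among 11 WNT pathway genes, 6 were at least 2-fold higher and none lower: the ligand Wnt5b, the co-receptor Lrp6, the extracellular modulators Sfrp2, Rspo2 and Rspo3, and the intracellular inhibitor Nkd2. Sfrp2 was at 235 and 89.7 CPM and Rspo2 at 28.7 and 8.43 CPM (3.40, 2.72 to 4.22). The Rspo3 ratio of 2.76 was 1.22 at matched depth and 1.03 without cycling cells. Of 10 BMP pathway genes, the antagonist Chrdl1 (20.6 and 1.42 CPM, ratio 14.5, 10.3 to 20.6) and the ligand Bmp5 (12.5 and 2.79 CPM) were at least 2-fold higher. TGF-beta and FGF genes were mostly within 2-fold, with 1 of 15 and 1 of 10 higher and 1 in each lower. Counts of 1 are not read as a difference from the shares over all genes. The ligands Tgfb2 and Tgfb3, which act in tendon formation, were at 25.6 and 27.3 CPM and at 30.8 and 28.8 CPM. Ptn, pleiotrophin, a heparin-binding growth factor, was at 417 and 120 CPM (3.46, 3.27 to 3.66), and its ratio was 1.66 at matched depth and 1.85 without cycling cells. Gas6, the ligand of the AXL receptor kinase, was at 553 and 104 CPM (5.33, 5.06 to 5.61), and Axl itself at 72.5 and 158 CPM.

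Outside the rule genes, the highest ratio at 50 CPM was that of Il33 (chromosome 19, 29925114 to 29960718), a nuclear alarmin cytokine released by damaged stromal cells. It was at 108 CPM in members and 5.28 CPM in comparison cells (20.5, 17.4 to 24.2). In members it ran from 0 to 7.74 per 10000 with a median of 0.406, and in comparison cells from 0 to 8.98 with a median of 0. Its ratio was 11.2 at matched depth and 25.8 without cycling cells. At 3000 UMIs it was seen in 27.4% of members, 1.14% of comparison cells and 0 of 687 macrophages. Of 14 genes of the inflammation list at 10 CPM or more, 7 were at least 2-fold higher in members and 1, Ptgs2, lower (3.13 and 11.1 CPM). The Ptgs2 ratio of 0.282 was 0.562 with cells thinned to 3000 UMIs and 0.525 without cycling cells. Among the higher ones were the chemokines Cxcl12 (334 and 105 CPM) and Cxcl5 (575 and 231 CPM), the hyaluronan-binding protein Tnfaip6 (57.9 and 20.7 CPM) and the haemoglobin-binding protein Hp (61.3 and 15.2 CPM). Ccl2 and Ccl7, which attract monocytes, were at 173 and 186 CPM and at 243 and 193 CPM. The Hp ratio of 4.03 was 1.49 at matched depth.

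Proteases and their inhibitors lay on both sides. Of 21 genes of the protease list at 10 CPM or more, 6 were at least 2-fold higher in members and 1 lower. Serpine2, an inhibitor of thrombin and plasminogen activators, was at 408 CPM in members and 102 CPM in comparison cells (4.00, 3.78 to 4.24), and Htra3, a secreted serine protease, at 76.7 and 19.2 CPM. Timp3, a matrix-bound inhibitor of metalloproteinases, was the lower one, at 107 and 509 CPM (0.211, 0.191 to 0.233). Mmp3, stromelysin, had 121 UMIs in members and 26 in comparison cells (52.1, 33.9 to 83.0), all of those in members within the highest 10% of cells. Mmp9 was at 41.7 and 20.7 CPM, and its level in members was 7.93 CPM without the 7 cells rich in osteoclast genes. Among the highest ratios outside the lists, Slpi, a leukocyte protease inhibitor, was at 183 and 25.5 CPM (7.17, 6.51 to 7.89), and the extracellular superoxide dismutase Sod3 at 270 and 56.0 CPM (4.81, 4.47 to 5.18). Mt2, a metallothionein, was at 681 and 142 CPM (4.80, 4.58 to 5.02). Only Ndufa4l2 and Pfkfb3 of 19 hypoxia and glycolysis genes were at least 2-fold higher and none lower, and the Pfkfb3 ratio of 2.98 was 1.72 with cells thinned to 3000 UMIs. Glycolytic enzymes lay close to equality, with Pgk1 at 659 and 589 CPM, Ldha at 1100 and 1188 CPM and Aldoa at 1187 and 1048 CPM.

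Contractile genes were lower in members. Of 11 at 10 CPM or more, 6 were at least 2-fold lower and none higher, with a median log2 ratio of −1.14. Acta2, smooth muscle actin, was at 991 CPM in members and 2183 CPM in comparison cells. Tagln, transgelin, an actin-binding protein of contractile cells, was at 268 and 878 CPM (0.305, 0.286 to 0.325), with medians of 0.668 and 4.96 per 10000 per cell. Its ratio was 0.436 at matched depth and 0.265 without cycling cells. Actg2 and Lmod1, of smooth muscle, were at 14.9 and 58.3 CPM and at 3.65 and 21.1 CPM. Cavin2, a coat protein of caveolae, had the lowest ratio of the genes at 50 CPM (10.2 and 61.9 CPM; 0.164, 0.116 to 0.225). Of 12 genes of the YAP and mechanical target list 4 were lower and none higher, with Ctgf at 4.69 and 31.0 CPM and Ankrd1 at 3.39 and 14.0 CPM, while Yap1 itself was at 25.3 and 23.5 CPM. The Ankrd1 ratio was 0.510 at matched depth.

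Osteoblast genes were split. Of 7 at 10 CPM or more, Sp7, Alpl, Ibsp and Bglap2 were at least 2-fold lower and none higher. The osteoblast transcription factor Sp7 gave 23 UMIs in members and 821 in comparison cells (ratio 0.314, 0.198 to 0.474) and the mineralization enzyme Alpl at 11.5 and 28.6 CPM. Ibsp, bone sialoprotein, gave 2 UMIs in members and 766 in comparison cells (0.0292, 0.00354 to 0.106), and Bglap2, an osteocalcin gene, 3 and 513 UMIs. Bglap2 lies beside the near-identical Bglap, so reads of the pair may be shared between them. Runx2, which precedes Sp7 in osteoblast formation, was at 30.3 and 31.2 CPM. Spp1, osteopontin, a secreted phosphoprotein also made by macrophages, was at 2228 and 1711 CPM (ratio 1.30), and the whole list summed to 2297 CPM in members and 1853 CPM in comparison cells. When cells were clustered without the rule genes, as described below, the cluster led by Ibsp and Bglap2 held 182 comparison cells and 3 members. Stromal progenitor genes were mixed. Of 12 at 10 CPM or more, 5 were at least 2-fold higher, among them Gas1, a cell-surface inhibitor of growth (572 and 132 CPM, ratio 4.33, 4.12 to 4.55), Dpt, dermatopontin (38.6 and 4.96 CPM, 7.78, 6.27 to 9.65), and Islr (65.5 and 19.5 CPM). The intermediate filament gene Nes was lower, at 2.09 and 18.5 CPM, and 6 genes stayed within 2-fold. Gli1, Mcam and Dpp4 of that list did not reach 10 CPM in either group and were at 0 in members. The lineage factor Prrx1 was at 434 and 357 CPM and the stem cell antigen Ly6a at 706 and 584 CPM.

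Mitotic genes were lower in members. Of 15, 13 were at least 2-fold lower and none higher, with a median log2 ratio of −1.24. Cdk1, the kinase that starts mitosis, was at 36.0 CPM in members and 98.1 CPM in comparison cells, and Top2a, a topoisomerase of dividing cells, at 38.1 and 97.3 CPM. The chromatin architecture genes Hmga1 and Hmga2, high in growing embryonic and tumour cells, were at 19.3 and 112 CPM (0.173, 0.135 to 0.217) and at 55.8 and 221 CPM (0.252, 0.219 to 0.289). Without cycling cells their ratios were 0.333 and 0.367. Cdkn1c, an inhibitor of cyclin-dependent kinases, was higher in members, at 77.5 and 12.2 CPM (6.37, 5.51 to 7.36). Among 9 nerve and axon factors at 10 CPM or more, Ptn was higher and the guidance cue Slit2 (10.4 and 21.3 CPM) was lower, with a ratio of 0.489 that reached 0.795 with cells thinned to 3000 UMIs.

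When cells were clustered without Comp, Thbs4 and Tnmd, the spread of members depended on the resolution. At resolution 0.5, 1 cluster held 128 of the 190 members (67.4%) among its 557 lineage cells. At resolution 1, used from here on, of 15 clusters of the whole library, cluster 10 held 79 of the 190 members (41.6%), cluster 4 held 47, cluster 6 held 28, cluster 2 held 18, and the other clusters the remaining 18. Members were 54.9% of the 144 lineage cells of cluster 10, 14.1% of 334 in cluster 4, 10.6% of 263 in cluster 6 and 2.77% of 649 in cluster 2. The genes leading cluster 10, which had 147 cells in all, were Il33, Ndufa4l2, Lum, Thbs4, Igfbp3, Dcn, Aqp5, Abi3bp, Gpm6b and Comp. Cluster 4 was led by Pdzrn4, Cdkn1c, Ptn, Penk, Aspn, Slpi and Sfrp2, cluster 6 by Hp, Cxcl12, Serpina3n, Sfrp1 and Islr, and cluster 2 by mitotic genes. Cluster 10 held 18 comparison cells, and none of the clusters was made of members alone. Of the 105 genes higher in all members, 91 were at least 2-fold above the comparison cells in the members of cluster 10, 84 in those of cluster 4, 80 in those of cluster 6 and 39 in those of the other clusters. The 105 genes were called from sums over these same members, so high counts are partly built in. No share over all genes is given for any cluster.

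**Figure D4:**
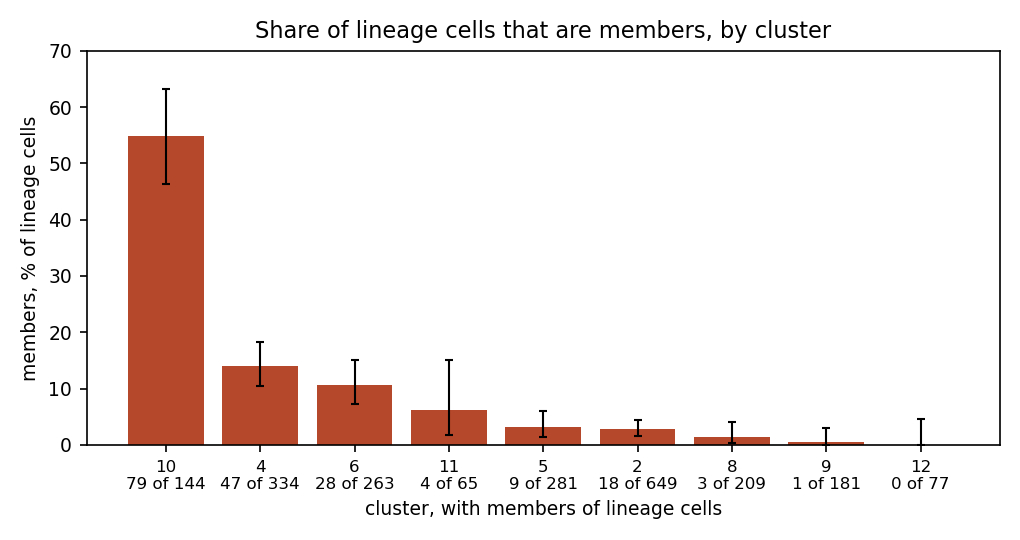
Share of lineage cells that were members (vertical axis, %, from 0) in each cluster with at least 50 lineage cells, clustered at resolution 1 without Comp, Thbs4 and Tnmd. Bars are shares and error bars exact Clopper-Pearson 95% intervals covering counting error; cluster 10 stood at 54.9% and cluster 4, the next, at 14.1%.

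The members of the 3 clusters carried different matrix and signalling genes. Several of these were among the genes leading the clusters: Ndufa4l2, Il33 and Dcn for cluster 10, Ptn and Sfrp2 for 4, Hp and Cxcl12 for 6. Their differences between clusters thus follow in part from the clustering and are a description. Ndufa4l2 was at 1179 CPM in members of cluster 10, 61.1 CPM in those of cluster 4, 207 CPM in those of cluster 6 and 151 CPM in the others. Il33 was at 215, 44.0, 31.97 and 34.4 CPM, and Dcn at 906, 114, 446 and 201 CPM, in the same order. All 3 genes were highest in members of cluster 10, while Il33 differed from the other pair in the order of the remaining clusters. The 18 comparison cells of cluster 10 were also at 403 CPM for Ndufa4l2 and 103 CPM for Il33. Without cluster 10 in either group, the ratio of Ndufa4l2 was 3.57, that of Il33 was 8.51 and that of Fmod was 2.77. Ndufa4l2 and Il33 lead the cluster left out, so their ratios are not independent of that choice.

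Tnmd was lowest in members of cluster 10, at 11.1 CPM in members of cluster 10 (17 UMIs), 226 CPM in those of cluster 4, 40.5 CPM in those of cluster 6 and 148 CPM in the others. Igf1 was at 479 CPM in members of cluster 10 and 720 CPM in those of cluster 4, but at 49.0 CPM in those of cluster 6 and 42.2 CPM in the others, which is near the 36.1 CPM of comparison cells. Ptn was at 415, 796, 31.97 and 231 CPM and Sfrp2 at 54.2, 574, 371 and 121 CPM in the same order of clusters. Cluster 6 members led in Gas6 (1027 CPM), Cxcl12 (742 CPM) and Hp (168 CPM), against 724, 179 and 74.0 CPM in cluster 4 members. Scx was at 68.6 CPM in members of cluster 10 (56.1 to 83.0), 48.3 CPM in those of cluster 4 (35.2 to 64.6), 29.95 CPM in the others (19.7 to 43.6) and 4.26 CPM in those of cluster 6, from 2 UMIs. Acta2 was at 449 CPM and 249 CPM in members of clusters 10 and 6, and at 1613 CPM and 1653 CPM in those of cluster 4 and the others, against 2183 CPM in comparison cells. Cells with at least 3 mitotic UMIs, unthinned, were 26.6% of members in cluster 10, 27.7% in cluster 4, 14.3% in cluster 6 and 72.2% in the others. The others include the 18 members of cluster 2, which mitotic genes led, so that share is partly built in.

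**Figure D5:**
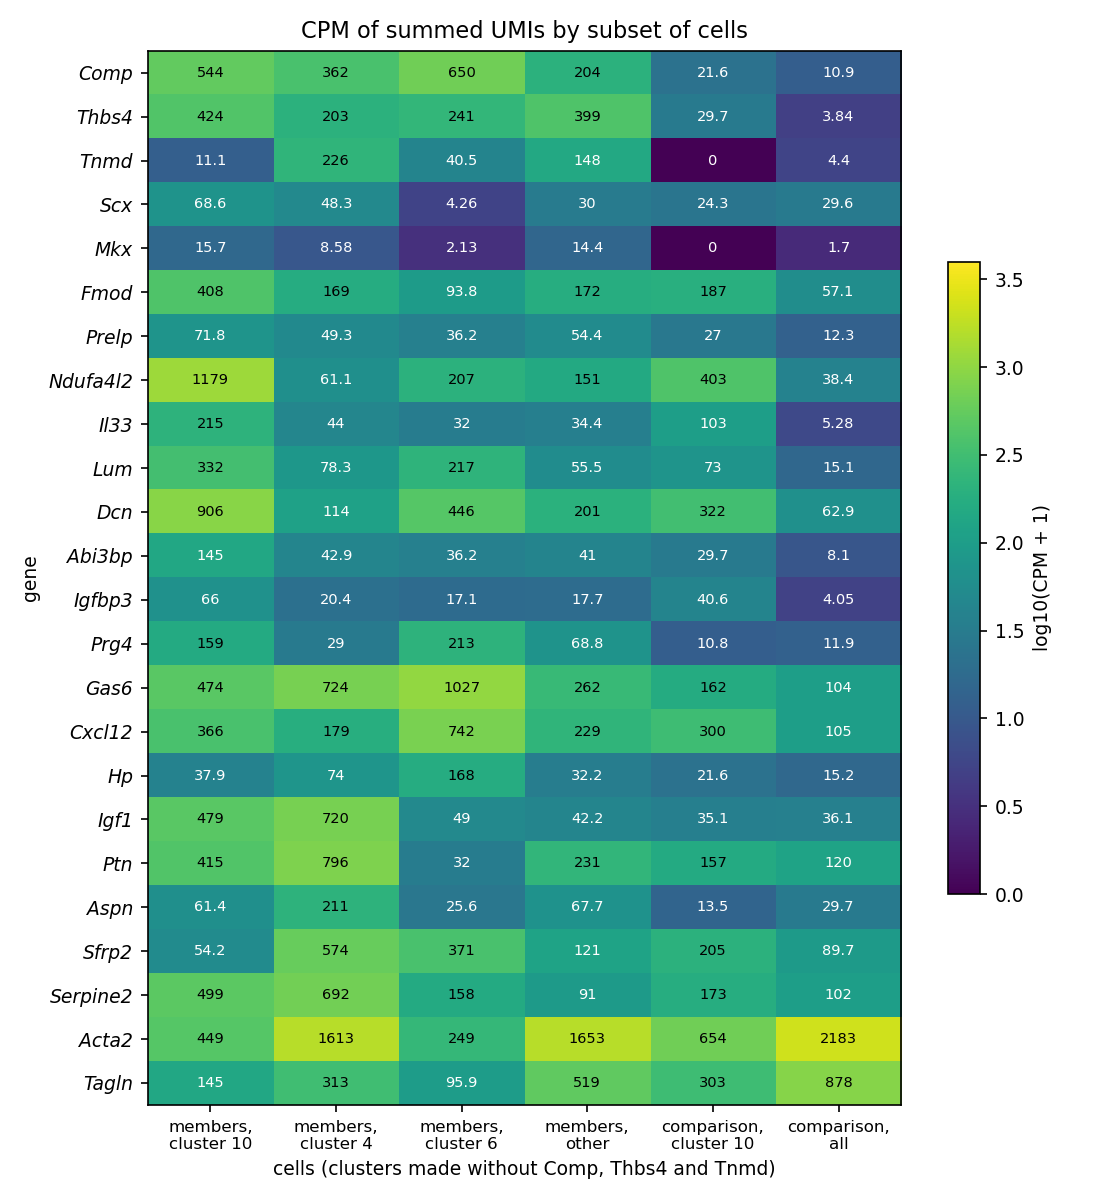
CPM of summed UMIs for 24 genes (rows; colour is log10 of CPM plus 1, numbers are CPM) in members of clusters 10, 4, 6 and the other clusters, in the 18 comparison cells of cluster 10 and in all comparison cells. Ndufa4l2 was highest in cluster 10 members at 1179 CPM, Tnmd and Ptn in cluster 4 members at 226 and 796 CPM, and Cxcl12 in cluster 6 members at 742 CPM.

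Splitting members by their highest rule gene gave a related picture. Comp led in 95 members, Thbs4 in 69 and Tnmd in 19, and 7 were tied. Of the Comp-led members 46 lay in cluster 10, of the Thbs4-led ones 30, and of the Tnmd-led ones 0, with 11 of those in cluster 4. Ndufa4l2 was at 667 CPM in Comp-led, 544 CPM in Thbs4-led and 60.8 CPM in Tnmd-led members. Il33 was at 128, 120 and 4.68 CPM in the same order, the last from 2 UMIs and close to the 5.28 CPM of comparison cells. Tagln was at 109 CPM in Comp-led, 258 CPM in Thbs4-led and 1001 CPM in Tnmd-led members, against 878 CPM in comparison cells. Scx was at 41.8, 47.2 and 67.8 CPM, with overlapping intervals (32.8 to 52.5, 36.9 to 59.6 and 45.4 to 97.4). Mkx gave 20, 24 and 0 UMIs. The 19 Tnmd-led members thus had Tagln at or above the level of comparison cells and less Ndufa4l2 and Il33 than the other members.

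Over 2221 lineage cells thinned to 3000 UMIs, the genes whose level was most like the sum of Comp, Thbs4 and Tnmd among 7913 genes were, by Spearman's rho, Gas6 (0.33), Fth1 (0.31), Col3a1 (0.29), Gas1 (0.27), Ndufa4l2 (0.26), Igf1 (0.25), Il33 (0.25), Mgp (0.23), Dcn (0.22) and Igfbp4 (0.22). These cells share 1 library and the values are weak and descriptive. Over the same lineage cells rho was 0.17 between Comp and Thbs4 and 0.03 between Comp and Tnmd. Ndufa4l2 had rho of 0.24 with Comp, 0.22 with Thbs4, −0.01 with Tnmd and 0.30 with Il33. Correlations of rule genes within members are not given, since the sum of these genes chose the cells.

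The same rule found 19 of 3697 lineage cells in the library of day 3 after fracture (0.514%, 0.310 to 0.801). These 19 cells were shallow, with a median of 1272 UMIs, a highest cell of 4988 and 18 of them under 3000 UMIs, against a median of 32923.5 UMIs in the 3628 day-3 lineage cells below the lower threshold. Comp was seen in 17 of them, Thbs4 in 6 and Tnmd in 1. Their 29358 UMIs in all were rich in cartilage genes: Col2a1 gave 240 UMIs (8175 CPM), Acan 72, Col9a3 39, Hapln1 32, Matn3 25 and Ucma 20. In the 190 members of the uninjured library Col2a1 was at 14.1 CPM and Acan at 0.522 CPM. Fmod gave 10 UMIs and Dcn 32 in the day-3 cells, and Scx 1. With 19 cells of low depth, the values of most single genes were too few to compare, and shares of the 2 libraries are given side by side only.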

How the data were processed

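Droplet 3′ single-cell RNA libraries were made from periosteal cells of uninjured mice and of mice at day 3 after fracture, 1 library each, with a 10x kit per the labels' protocols. The deposited matrices hold UMI counts per gene and barcode, written by software version 3.1.0 per the file headers. Per the submitters' processing notes, Cell Ranger, Seurat 4.0.1 and the mm10 build were used. Other steps are not given in the sources used here. Labels name the molecule as genomic DNA, although the files hold transcript counts.

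From the deposited counts, cells were filtered, which left 4431 uninjured and 14463 day-3 cells. Raw UMIs were summed over the cells of each group and scaled to CPM. A ratio is members over comparison cells with an exact binomial 95% interval, and shares have exact Clopper-Pearson intervals. PCR duplicates are collapsed by UMIs, and the intervals cover counting error only. A count of 0 was read with a limit of 3 counts. Genes were counted as higher or lower at 2-fold, with 50 CPM or 10 CPM in the higher group, which a gene could reach through that group alone. Thinning drew 3000 UMIs per cell and left out shallower cells. Clustering used the Leiden algorithm at resolution 1 on the uninjured library. The scripts were tested on simulated data. Scrublet's automatic threshold marked 0 cells, so no doublets were removed, and removal of the 157 highest scores was an alternative.

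The text names the 25 highest and 15 lowest ratios at 50 CPM, every tendon regulator and tendon matrix gene at 10 CPM, and the 2 highest and 2 lowest genes of each other list. A few genes of these lists are not reported here. Other genes named were chosen from the lists after their values were seen. The members and lists were chosen with earlier results of these data known. Of 31055 feature identifiers, 30934 were found in the annotation. Alternatives changed the thresholds, depth, comparison cells, cycling cells, doublets and clustering. Those without cells rich in osteoclast genes and without cluster 10 were added after seeing the data. Clusters came from scanpy 1.11.5 with leidenalg 0.10.2 and scikit-learn 1.9.0, intervals from scipy 1.17.1, sums from pandas 2.3.3 and numpy 2.4.6, and plots from matplotlib 3.10.9, under Python 3.11.15.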

Additional observations from a re-analysis of the deposited data

Results flagged for a closer look

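Of 89 named genes at least 2-fold apart in the uninjured library, 32 had a day-3 interval on the same side of 1, 3 on the opposite side and 54 an interval that included 1. Of the 89, 49 had fewer than 3 UMIs in the day-3 cells, and Prelp and Rspo3 count among the 32 from 1 UMI each. No share over all genes stands beside these counts, so the 32 are not read as likeness between the libraries. The difference between libraries was not tested for the 3, which are given here. The day-3 values rest on 19 shallow cells and few UMIs. Loxl2, a collagen crosslinking oxidase, had a ratio of 8.51 at day 3 (3.67 to 16.8) from 8 UMIs, and 0.392 in the uninjured library. Ibsp, bone sialoprotein, had a ratio of 248 at day 3 (78.5 to 600.1) from 5 UMIs, and 0.0292 in the uninjured library from 2 UMIs. Ptgs2, the inducible cyclooxygenase, had a ratio of 2.75 at day 3 (1.37 to 4.92) from 11 UMIs, and 0.282 in the uninjured library.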

How the results depend on the processing

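Against 105 genes at least 2-fold higher and 65 lower in members, a minimum of 10 CPM gave 289 and 245, and comparison cells weighted to the depth of the members gave 41 and 15. With all other lineage cells as the comparison the counts were 69 and 43, and without cycling cells 66 and 20. The lower count alone moved by over 1.5 times to 123 with members at 10 or more per 10000, 31 with members chosen by Thbs4 and Tnmd, 117 with Comp and Tnmd, and 28 without cluster 10. The share of members in the cluster that held most of them was 41.6%, and 67.4% at resolution 0.5. Of 89 named genes at least 2-fold apart, 67 to 89 stayed so on the same side over the 17 alternatives. Hmmr, lower in members, had a ratio of 3.15 without cycling cells. It is among the 15 mitotic genes whose UMIs chose the cells left out, so this ratio is not independent of that choice. The median ratio of genes at 50 CPM or more in both groups was 0.965 (log2 −0.05). No paired analysis was possible because there was 1 library per group and no test was made. Low UMI counts limit the values of Ibsp, Bglap2, Kera, Chad and the day-3 cells.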
